A study of Arabidopsis thaliana with 30 samples.

Results

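Endoglucanases of glycoside hydrolase family 9 (GH9) and TRICHOME BIREFRINGENCE-LIKE (TBL) proteins were followed across 5 sorted cell types of the Arabidopsis thaliana root at 2 pH values. The members are all probe sets that map to 1 gene whose symbol begins with GH9A, GH9B or GH9C, or with TBL and a number, with no filter on expression. This gave 37 genes with 1 probe set each, 15 of GH9 and 22 of TBL, among 22746 probe sets. RefSeq names 21 GH9 and 41 TBL genes, and the remaining ones, GH9A1 (KORRIGAN) among them, were not analysed here. The GH9 members are 2 of class A, 10 of class B and 3 of class C. Left out were 2 further probe sets that map to several genes with a GH9 or TBL gene among them.

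All seedlings were of the Columbia ecotype, were moved at 5 days to fresh medium for 24 h, and gave roots of 6 days. The low pH group was moved to medium of pH 4.6 and the control group to medium of pH 5.7, and both media held 3 mM DMG. Roots of both groups were protoplasted and GFP-positive cells were sorted from 5 marker lines, Pet111::GFP for the columella, pWER::GFP for the epidermis with the lateral root cap, pCOR315.1::GFP for the cortex, pSCR::GFP for the endodermis with the quiescent center, and pWOL::GFP for the stele. Each cell type thus rests on 1 line, and the epidermis and endodermis groups each join cells of 2 kinds. Every cell type had 3 ATH1 arrays at each pH, 30 in all. The values are MAS5 signals on a linear scale, and array medians ranged from 43.8 to 71.7. The labels do not say whether replicates came from separate cultures, so the p-values reflect array-to-array spread within these groups, and that spread may be technical. The number of arrays limits the precision.

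GH9 enzymes cut beta-1,4-glucan chains in the plant cell wall. Class A enzymes are anchored in membranes, class B enzymes are secreted, and class C enzymes carry in addition a carbohydrate-binding domain. Most TBL proteins that have been studied place acetyl groups on wall polysaccharides in the Golgi, with different members acting on xylan, mannan, xyloglucan or pectin. Growth by cell expansion in the root involves loosening and remodelling of these same polymers in the apoplast, a compartment that is itself acidic.

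Nearly all calls among these genes were falls at low pH. Each of the 37 genes was tested in the 5 cell types, and of these 185 tests 28 passed an adjusted p of 0.05, 27 lower and 1 higher at pH 4.6. Over all probe sets 10% of such tests passed, 5.73% higher and 4.27% lower. GH9 gave 12 lower and 0 higher of 75 tests, and TBL gave 15 lower and 1 higher of 110. In all, 16 of the 37 genes passed in at least 1 cell type, against 30.3% of all probe sets. All 28 also had 3 low pH values that did not overlap the 3 control values. The one rise was that of TBL37 in columella.

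**Figure D1:**
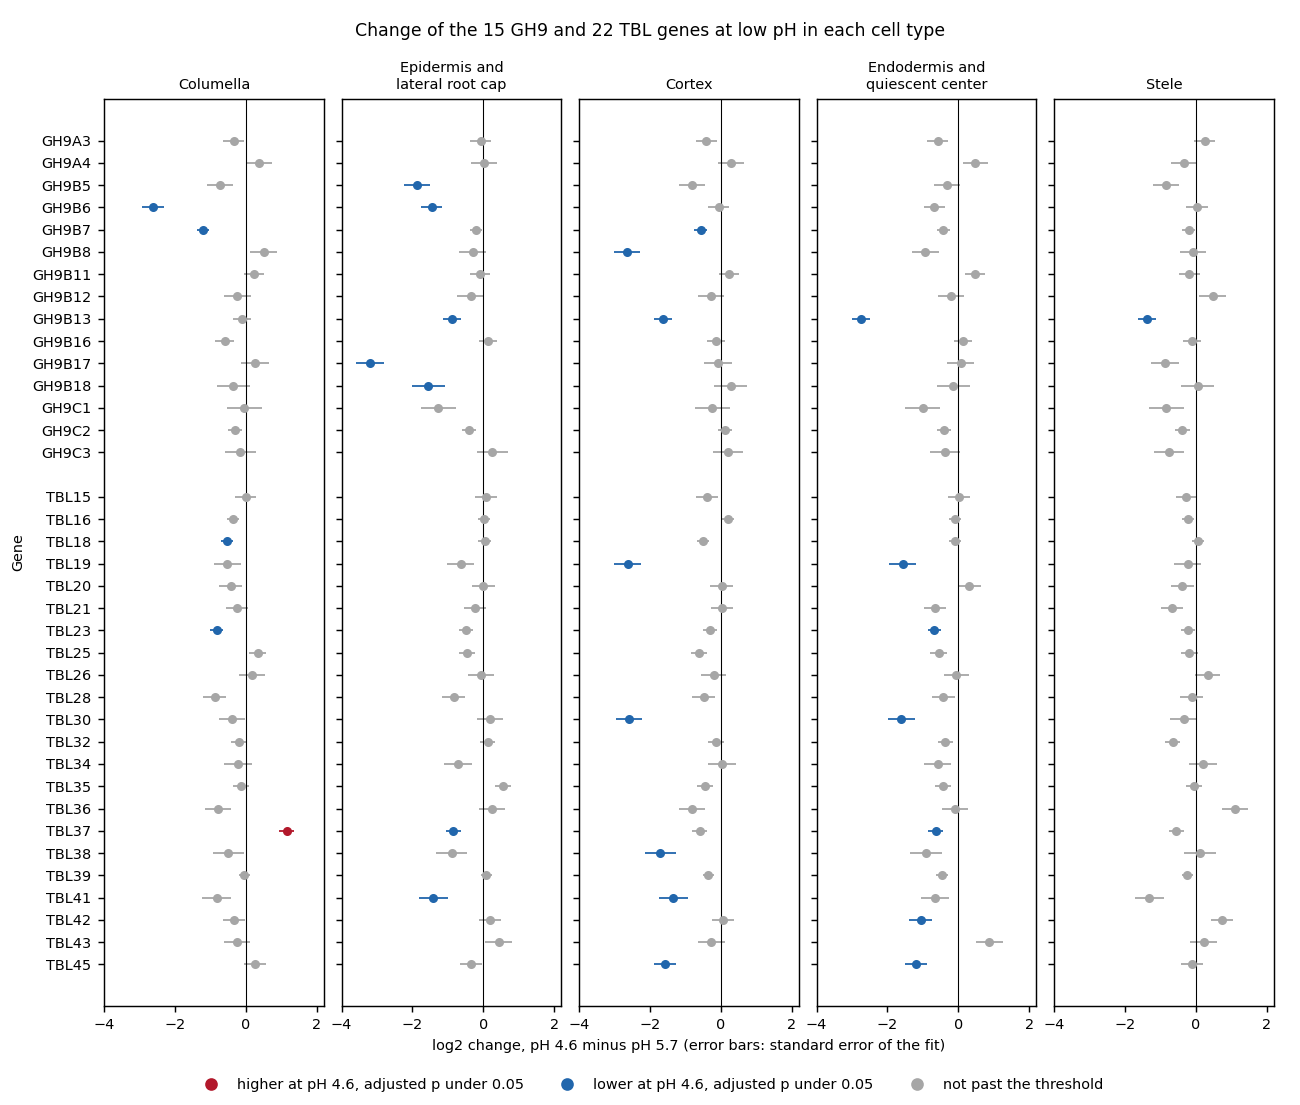
Log2 change (pH 4.6 minus pH 5.7, horizontal axis) of each GH9 and TBL gene (vertical axis) in the 5 cell types, with the standard error of the fit as error bar and colour for calls at an adjusted p under 0.05. Of 28 coloured points 27 lie left of 0, and TBL37 in columella lies right of it at 1.15.

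The labelled cell types were checked against known markers. EXPA7 and EXPA18 were highest in epidermis, AT1G09750, AT1G62510 and NPF6.4 in cortex and GSO1 in endodermis, at both pH values. The quiescent center marker AGL42 was highest in cortex. Of the stele markers, PHV had 295 ± 129.9 at pH 4.6 and 176 ± 49.3 at pH 5.7 in stele but 538 ± 52.4 at pH 4.6 and 405 ± 17.5 at pH 5.7 in columella, and LHW had means from 173 to 428 at pH 4.6 and from 129 to 315 at pH 5.7, highest in stele at pH 4.6 and in cortex at pH 5.7. No columella marker of 5 and no xylem marker of 3 was measured under its own name, so the columella label could not be checked this way. Epidermis markers were also present in stele, and GSO1 in cortex and in stele. In stele GSO1 had 1213 ± 231 at pH 4.6 and 1456 ± 310 at pH 5.7. Other values are given beside the results they move with.

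The calls were spread unevenly over cell types. In columella 4 members were lower and 1 higher (14.6% of all probe sets called, 7.65% lower and 7% higher). In epidermis 7 were lower (6.54% called, 2.12% lower and 4.42% higher), and in cortex 8 were lower (13% called, 4.99% lower and 7.98% higher). In endodermis 7 were lower (11.2% called, 4.76% lower and 6.47% higher), and in stele 1 was lower (4.64% called, 1.85% lower and 2.79% higher). These are 13.5%, 18.9%, 21.6%, 18.9% and 2.7% of the members, so the columella and stele shares of called genes lie near or under their backgrounds. The counts depend on the spread pooled over all groups. With the 6 arrays of a cell type fitted alone, called probe sets went from 1488 to 161 in epidermis. They went from 2554 to 823 in endodermis, 1055 to 226 in stele, 2950 to 2657 in cortex and 3331 to 4125 in columella. The epidermis calls of GH9B6, GH9B13, GH9B18, TBL37 and TBL41 were lost in that fit. The size of the pH change differed between cell types for 9 of 37 genes, 5 of GH9 and 4 of TBL (interaction test, 8.25% of all probe sets). The groups did not overlap for 10 members in columella (33.7% of all probe sets), 11 in epidermis (19.9%), 16 in cortex (30.5%), 13 in endodermis (25.8%) and 11 in stele (22%). Averaged over the 5 cell types, 20 of 37 genes were lower and 0 higher (30.5% of all probe sets called, 16.8% higher and 13.7% lower). These were 8 of 15 GH9 genes and 12 of 22 TBL genes, and the median change of the mean response was -0.35 for GH9 and -0.25 for TBL on the log2 scale, against -0.01 for all probe sets. Calls and changes refer to log2(signal + 11.9), where 11.9 is the percentile 25 of all signals, so changes of faint genes are understated.

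Levels differed widely between cell types before pH is considered. At pH 5.7, 11 of 15 GH9 genes and 17 of 22 TBL genes differed between the 5 cell types (63.9% of all probe sets did). Faint genes were GH9A4, GH9B11, GH9B12 and GH9B16, and TBL15, TBL20, TBL42 and TBL43, with no group mean of 23.8 or more. No detection call came with the signals, so whether these are expressed was not assessed. At pH 5.7 the highest mean of a GH9 gene lay in columella for 2 genes, epidermis for 6, cortex for 3, endodermis for 4 and stele for 0. The highest mean of a TBL gene lay in columella for 5, epidermis for 4, cortex for 5, endodermis for 3 and stele for 5. Over all probe sets 35.2% were highest in columella, 16% in epidermis, 16.1% in cortex, 21% in endodermis and 11.7% in stele. In the order of levels, 12 of 60 steps between neighbouring cell types passed for GH9 (20%) and 28 of 88 for TBL (31.8%), against 15.5% of such steps over all probe sets.

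**Figure D2:**
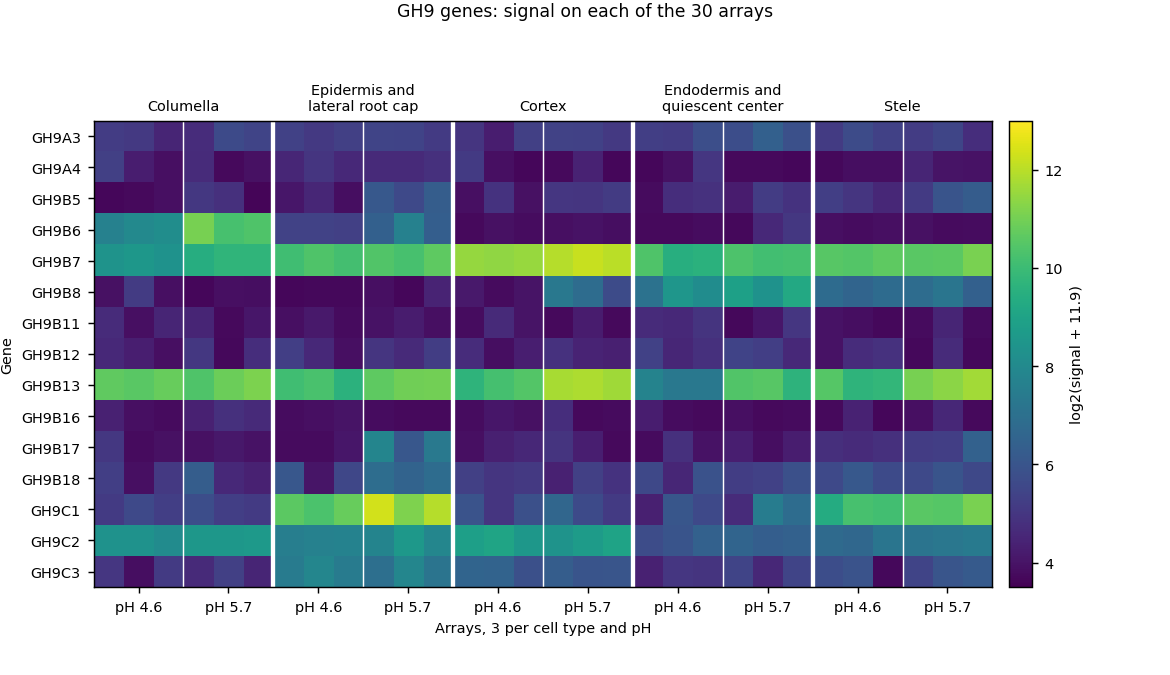
Signal of the 15 GH9 genes (rows) on each of the 30 arrays (columns, pH 4.6 left of pH 5.7 in each cell type), as log2(signal + 11.9). GH9B7 and GH9B13 are bright in every cell type, GH9B6 in columella and GH9C1 in epidermis and stele.

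GH9B6, a class B enzyme, was a columella gene and fell there most clearly. Its signals in columella were 194, 242 and 275 at pH 4.6, against 1208, 1310.0 and 2135 at pH 5.7. The highest low pH array thus lay far under the lowest control array. The fall was 6.13-fold (log2 change -2.62 ± 0.30 SE, limma adjusted p = 3.35e-07). In epidermis GH9B6 had 27.7, 29.4 and 29.4 at pH 4.6, against 68.6, 74.1 and 192 at pH 5.7, a fall of 2.75-fold (adjusted p = 0.00292). The epidermis call was lost with a pseudocount of 1 (0.0707) and in a fit to the 6 epidermis arrays alone (0.12). In cortex and stele its group means were 3.03 or less, and in endodermis 1.71 ± 0.485 at pH 4.6 and 11.4 ± 9.996 at pH 5.7 (SD, n = 3 each), all under 11.9. At pH 5.7 columella was above epidermis (adjusted p = 3.63e-11) and epidermis above endodermis (2.21e-07). In the epidermis arrays, 200 probe sets that the other cell types' arrays placed in columella also moved, 29 of them lower and 3 higher, with summed signals of 134451 to 180607 at pH 4.6 and 178036 to 268300 at pH 5.7. Here and below, such sets were chosen without the arrays in which they are read. They can thus hold genes that the cell type read expresses itself. The part of these 200 in the epidermis result was not tested.

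GH9B13, also of class B, was bright in every cell type and fell in 4 of 5. In endodermis it had 144, 146 and 204 at pH 4.6, against 782, 1372 and 1452 at pH 5.7, a fall of 6.71-fold (log2 change -2.75 ± 0.25, adjusted p = 3.34e-08). In cortex it had 809, 1174 and 1410.3 at pH 4.6, against 3199, 3485 and 3653 at pH 5.7, a fall of 3.10-fold (adjusted p = 2.47e-05). In stele it had 798, 869 and 1425 at pH 4.6, against 2118, 2603 and 3262 at pH 5.7, a fall of 2.61-fold (adjusted p = 0.00102). The groups were apart in each of these cell types, and no other gene of the 37 passed in stele. TBL41 did pass there under 9 of 40 alternatives, and TBL32 and TBL36 under 2 each, TBL36 as a rise. In epidermis GH9B13 had 773, 1066 and 1212 at pH 4.6, against 1596, 1969 and 2029 at pH 5.7 (1.84-fold lower, adjusted p = 0.0265). That call was lost without pH 4.6 replicate 3 (0.145), pH 5.7 replicate 2 (just over the threshold) and pH 5.7 replicate 3 (0.122), and in the fit to the epidermis arrays alone (0.0957). In columella the means were 1633 ± 109 at pH 4.6 and 1797 ± 439 at pH 5.7, within the spread of the controls.

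The change of GH9B13 differed between the cell types (interaction adjusted p = 0.000116), and so did its order of levels. At pH 4.6 columella had the highest mean and was above epidermis (adjusted p = 0.0234), stele (0.0214) and endodermis (7.40e-12), but not cortex (0.0725). At pH 5.7 cortex had the highest mean, 3446 ± 229.8, and was above columella (adjusted p = 0.00178) but not stele (0.273). Markers placed in stele by the other arrays moved with the endodermis fall. Of 200, 98 were lower and 0 higher in the endodermis arrays, with summed signals of 42944 to 75172 at pH 4.6 and 100100 to 134912 at pH 5.7. Of 3 cortex markers, 1 was lower in endodermis and 2 in stele. NPF6.4, at 407 ± 76.9 at pH 4.6 and 439 ± 22.1 at pH 5.7 in cortex itself, was lower in endodermis, at 3.90 ± 1.22 at pH 4.6 and 27.1 ± 3.39 at pH 5.7, and in stele, at 4.25 ± 0.386 at pH 4.6 and 39.9 ± 14.8 at pH 5.7. AT1G09750 and AT1G62510 did not pass in endodermis (0.195 and 0.101). Of 200 probe sets placed in cortex by the other arrays, 23 were lower and 20 higher in endodermis, and 23 were lower and 3 higher in stele. Of 200 placed in epidermis, 60 were lower and 5 higher in stele. Their summed signals there were 76852 to 95296 at pH 4.6 and 124909 to 212541 at pH 5.7. The part of these markers in the changes of GH9B13, or in the endodermis falls of TBL19, TBL23, TBL30, TBL37, TBL42 and TBL45 described further on, was not tested.

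GH9B7, the brightest GH9 gene by its mean over all arrays (by a narrow margin over GH9B13), passed in columella and cortex. In columella it had 316, 318 and 357 at pH 4.6, against 681, 819.9 and 838 at pH 5.7, a fall of 2.31-fold (log2 change -1.21 ± 0.18, adjusted p = 1.43e-05). In cortex, where it was brightest, it had 2708, 2865 and 2983 at pH 4.6, against 3958, 4135 and 4655 at pH 5.7, a fall of 1.49-fold (adjusted p = 0.0313). The groups do not overlap in either cell type, but the cortex call was lost with quantile normalization (0.0684) and on leaving out any of the 6 cortex arrays. Without them its adjusted p was 0.0816, 0.0968 and 0.0575 (pH 4.6 replicates 1 to 3) and 0.0519, 0.136 and 0.0537 (pH 5.7 replicates 1 to 3). In epidermis, endodermis and stele its means were 1183 ± 134, 919 ± 347 and 1484 ± 78.8 at pH 4.6, against 1372 ± 187, 1192 ± 97.7 and 1730.2 ± 359 at pH 5.7, and none passed. At pH 5.7 cortex was above stele (adjusted p = 1.32e-06) and endodermis above columella (0.00603). Stele against epidermis (0.201) and epidermis against endodermis (0.429) did not pass, but stele was above endodermis (0.0424). Of 200 probe sets placed in epidermis by the other arrays, 58 were lower and 10 higher in the columella arrays, with summed signals of 344514 to 355725 at pH 4.6 and 523463 to 592584 at pH 5.7. At pH 5.7 GH9B7 and TBL18 had higher means in epidermis than in columella, and GH9B6 and TBL23 lower ones. The epidermis set was chosen without the columella arrays, so it can hold genes that columella itself expresses. The part of these markers in the columella falls of these 4 genes was not tested. The mean response of GH9B7 was -0.52 ± 0.08 (adjusted p = 7.24e-06), lower in all 5 cell types.

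GH9B8 was an endodermis gene whose call came from cortex. In cortex it had 1.70, 3.97 and 5.62 at pH 4.6, all under the pseudocount, against 39.5, 103 and 145 at pH 5.7 (adjusted p = 1.14e-05). Its log2 change of -2.64 ± 0.38 depends on the pseudocount, and was -4.25 with a pseudocount of 1 and -1.29 with one of 55.3, the median of all signals. In endodermis it averaged 247 ± 115 at pH 4.6 and 458 ± 137 at pH 5.7, and the values overlapped (adjusted p = 0.112). In stele it had 94.2 ± 10.6 at pH 4.6 and 103 ± 29.7 at pH 5.7 (adjusted p = 0.953), and in columella and epidermis all means were 9.77 or less. At pH 5.7 endodermis was above stele (adjusted p = 0.000175) and cortex above epidermis (1.96e-06), while stele and cortex did not differ (0.777).

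The cortex arrays carried other endodermis transcripts that moved in the same direction. GSO1, a receptor kinase of the endodermis, had 461 ± 160.2 at pH 4.6 and 1831 ± 942 at pH 5.7 in cortex, and was the one measured gene of 8 endodermis markers. Of 200 probe sets placed in endodermis by the other arrays, 96 were lower and 13 higher in cortex, with summed signals of 51917 to 61525 at pH 4.6 and 76999 to 147244 at pH 5.7. Among the members, GH9B8, TBL19 and TBL30 had their highest level in endodermis and were lower in the cortex arrays. TBL38 and TBL45, which also fell in cortex, had higher means in endodermis than in cortex at both pH values. The part of these markers in the cortex changes of these 5 genes was not tested. In a bulk measure of this kind, fewer cells of a type and less RNA per cell cannot be told apart.

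In epidermis, GH9B17, GH9B5 and GH9B18 fell, all of class B and all highest in epidermis at pH 5.7. GH9B17 had 1.75, 1.91 and 5.16 at pH 4.6, against 55.7, 152 and 213 at pH 5.7 (adjusted p = 6.74e-06). GH9B5 had 2.72, 4.86 and 11.1 at pH 4.6, against 36.6, 58.1 and 67.8 at pH 5.7 (adjusted p = 0.00179). Both genes thus went under the pseudocount on every low pH array. Their log2 changes of -3.20 ± 0.39 and -1.86 ± 0.37 became -5.07 and -3.06 with a pseudocount of 1, and -1.65 and -0.82 with one of 55.3. GH9B18 had 4.34, 33.9 and 56.0 at pH 4.6, against 80.6, 104 and 108 at pH 5.7 (log2 change -1.56 ± 0.46, adjusted p = 0.0393). The GH9B18 groups were apart by a small margin, and the log2 change was -2.16 with a pseudocount of 1 and -0.86 with one of 55.3. That call was lost with a pseudocount of 1 (0.0931), in the epidermis arrays alone (0.183), and without pH 4.6 replicate 2 (log2 change -0.97, adjusted p = 0.333), pH 4.6 replicate 3 (0.0556), pH 5.7 replicate 1 (0.127) or pH 5.7 replicate 3 (0.134). Of 200 markers placed in stele by the other arrays, 46 were lower and 4 higher in the epidermis arrays, with summed signals of 131598 to 157480 at pH 4.6 and 171190 to 294468 at pH 5.7. The epidermis markers EXPA7 and EXPA18, the 2 measured of 6, were also lower there. Their falls were 3.41-fold and 4.95-fold (adjusted p = 0.0180 and 0.0125). The part of all these markers in the falls of the 3 genes was not tested.

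GH9B16, GH9B17 and GH9B18 (AT4G38990, AT4G39000 and AT4G39010) lie next to each other on chromosome 4. GH9B17 also reached 15.1 ± 1.51 in stele at pH 4.6 and 42.0 ± 28.4 at pH 5.7, and at pH 5.7 epidermis was above stele (adjusted p = 0.00583) and stele above cortex (0.0126). Its means in columella, cortex and endodermis were 9.41 or less at either pH. GH9B16 stayed at 12.8 or less in every group, so the genes of this cluster did not share a level. GH9B17 was lower in epidermis, with an interaction adjusted p of 0.000372, whereas the interaction did not pass for GH9B18 (0.280) or GH9B16 (0.543). Levels at pH 5.7 did differ between cell types for GH9B18 and GH9B16 (F test adjusted p = 0.00576 and 0.0320). GH9B5 was lower in all 5 cell types, with a mean response of -0.91 ± 0.16 (adjusted p = 7.70e-05) and the test of a difference between them did not pass (interaction adjusted p = 0.276). In stele, cortex, endodermis and columella it had 19.3 ± 7.40, 8.02 ± 8.47, 11.1 ± 8.09 and 1.73 ± 1.14 at pH 4.6, against 46.2 ± 21.5, 21.0 ± 2.15, 16.4 ± 8.99 and 12.5 ± 10.7 at pH 5.7. No step between neighbours in that order passed at pH 5.7, epidermis against stele included (0.721). Further apart, epidermis was above cortex (adjusted p = 0.0420), endodermis (0.00724) and columella (0.00110), and stele above columella (0.00456).

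No class C gene passed within a cell type, and 2 of 3, GH9C1 and GH9C2, passed in the mean response. GH9C1, known from root hairs, had 1514 ± 254 at pH 4.6 and 3832 ± 1486 at pH 5.7 in epidermis, and 971 ± 293 at pH 4.6 and 1708 ± 417 at pH 5.7 in stele. The values did not overlap in either, yet neither passed (adjusted p = 0.135 and 0.403). The epidermis fall did pass with a pseudocount of 55.3 (0.0162), with the replicate number as a block (0.0109) and without endodermis pH 5.7 replicate 1 (0.0478). In endodermis, cortex and columella its means were 33.2 ± 23.2, 37.3 ± 15.8 and 28.5 ± 7.06 at pH 4.6, against 94.9 ± 77.5, 49.6 ± 34.0 and 30.3 ± 10.5 at pH 5.7. The endodermis change (0.209) passed with the block (0.0312) and without endodermis pH 5.7 replicate 1 (log2 change -1.84, adjusted p = 0.00769). Epidermis and stele did not differ at pH 5.7 (adjusted p = 0.101), and stele was above endodermis (9.17e-08). Its mean response was -0.68 ± 0.22 (adjusted p = 0.0193), lower in all 5 cell types. The root hair expansins EXPA7 and EXPA18, the 2 measured of 6 epidermis markers, were lower in epidermis too, at 925 ± 173 and 389 ± 91.7 at pH 4.6 and 3468 ± 1830 and 2179 ± 1234 at pH 5.7. In stele EXPA7 had 467 ± 87.9 at pH 4.6 and 1518 ± 712 at pH 5.7 (adjusted p = 0.0429). EXPA18 had 265 ± 109 at pH 4.6 and 593 ± 323 at pH 5.7 there, with overlapping values, and did not pass (0.335). Of 200 epidermis markers from the other arrays, 60 were lower in stele and 5 higher. Their summed signals were 76852 to 95296 at pH 4.6 and 124909 to 212541 at pH 5.7. The part of these markers in the GH9C1 values was not tested.

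GH9C2, studied for its effect on cellulose crystallinity, ranged from 55.8 ± 18.4 in endodermis to 444 ± 83.0 in cortex at pH 4.6, and from 75.7 ± 6.38 to 409 ± 87.7 in the same cell types at pH 5.7. The mean response was -0.28 ± 0.09 (adjusted p = 0.0217), lower in 4 of 5 cell types and higher in cortex. At pH 5.7 cortex and columella did not differ (0.672), nor columella and epidermis (0.0516), while epidermis was above stele (0.00407) and stele above endodermis (0.00490). Cortex was above epidermis as well (adjusted p = 0.0185). GH9C3 was highest in epidermis, with 181 ± 31.9 at pH 4.6 and 154 ± 56.0 at pH 5.7, and did not pass in any cell type or in the mean response (adjusted p = 0.575). Of the class A genes, GH9A3 (KOR3) stayed between 17.96 and 53.2 in all group means and GH9A4 at 14.2 or less, and neither passed in a pH comparison or in the test between cell types at pH 5.7.

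**Figure D3:**
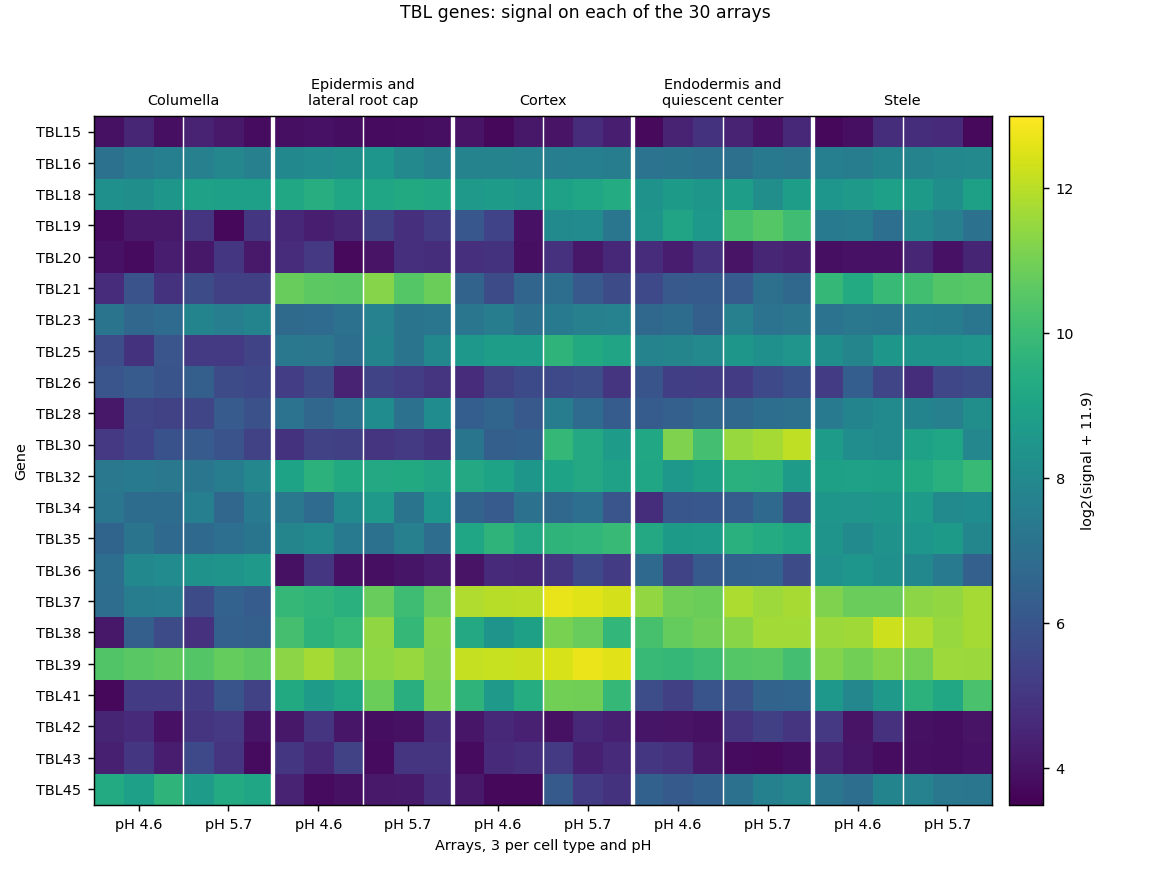
Signal of the 22 TBL genes (rows) on each of the 30 arrays (columns, pH 4.6 left of pH 5.7 in each cell type), as log2(signal + 11.9). TBL37 and TBL39 are brightest in cortex, TBL30 and TBL19 in endodermis, TBL21 in epidermis and stele, and TBL45 in columella.

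Of 5 TBL genes whose products acetylate xylan (TBL28, TBL30, TBL32, TBL34 and TBL35), 1 passed within a cell type (30.3% of all probe sets did in at least 1) and 2 were lower in the mean response (13.7%). TBL30 was brightest in endodermis, where it had 576, 1121 and 2285 at pH 4.6, against 2928, 3337 and 4369.8 at pH 5.7. The groups were apart, but the low pH arrays spread widely. This 3.04-fold fall (log2 change -1.61 ± 0.37, adjusted p = 0.00436) was lost without pH 4.6 replicate 1 (0.0626) and in the endodermis arrays alone (0.0828). In cortex TBL30 had 70.3, 75.4 and 136 at pH 4.6, against 418, 588 and 897 at pH 5.7, a fall of 6.05-fold (log2 change -2.60 ± 0.37, adjusted p = 1.12e-05). In stele it had 309 ± 87.4 at pH 4.6 and 412 ± 160.1 at pH 5.7, and in columella and epidermis 33.2 ± 12.7 and 24.7 ± 6.26 at pH 4.6, against 47.1 ± 16.7 and 19.9 ± 2.91 at pH 5.7, with overlapping values. The change differed between cell types (interaction adjusted p = 0.00273). At pH 5.7 endodermis was above cortex (4.86e-06) and stele above columella (2.64e-07), while cortex and stele did not differ (0.237).

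TBL28, the gene next to TBL30 on chromosome 2 (AT2G40150 and AT2G40160), had another order of levels. It was highest in stele at 208 ± 46.4 at pH 4.6 and 227 ± 49.7 at pH 5.7, and in epidermis it had 112 ± 20.2 at pH 4.6 and 218 ± 81.4 at pH 5.7. Its mean response of -0.55 ± 0.15 (adjusted p = 0.00427) was lower in all 5 cell types, and none passed alone. TBL35 was highest in cortex, at 646 ± 138 at pH 4.6 and 869 ± 62.9 at pH 5.7, followed by endodermis at 469.8 ± 106 at pH 4.6 and 635 ± 101 at pH 5.7, which did not differ from cortex at pH 5.7 (0.145) but was above stele (0.00221). In stele, epidermis and columella TBL35 had 300.1 ± 40.7, 206 ± 48.9 and 104 ± 24.8 at pH 4.6, against 321 ± 88.3, 138 ± 42.9 and 114 ± 18.2 at pH 5.7. TBL34 was highest in stele at 349 ± 12.9 at pH 4.6 and 311 ± 88.4 at pH 5.7, with epidermis next at 163 ± 73.0 at pH 4.6 and 288 ± 137 at pH 5.7. In columella, cortex and endodermis TBL34 had 115 ± 19.4, 88.0 ± 30.3 and 41.3 ± 23.0 at pH 4.6, against 141 ± 49.4, 86.2 ± 31.2 and 65.8 ± 29.8 at pH 5.7, and no step between neighbours in its order passed. Further apart in the order at pH 5.7, stele was above cortex (adjusted p = 0.000956) and endodermis (0.000179). Epidermis was likewise above cortex (0.00253) and endodermis (0.000225). TBL32, whose probe set carries the mark of possible matches to similar transcripts, lay between 149.8 and 757 in all groups and was lowest in columella at both pH values. TBL32, TBL34 and TBL35 did not pass in any pH comparison.

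Of 3 genes whose products acetylate mannan (TBL23, TBL25 and TBL26), TBL23 was the 1 that passed within a cell type, in columella and endodermis, and 2 were lower in the mean response, over the same backgrounds of 30.3% and 13.7%. In columella it had 88.1, 102 and 132 at pH 4.6, against 177, 206 and 209 at pH 5.7, a fall of 1.77-fold (adjusted p = 0.00299). In endodermis it had 71.3, 93.6 and 104 at pH 4.6, against 126, 142 and 185 at pH 5.7, a log2 change of -0.68 ± 0.19 (adjusted p = 0.0196). The endodermis call was lost without pH 4.6 replicate 3 (0.0986), pH 5.7 replicate 1 (0.118) and in the endodermis arrays alone (0.169). TBL23 was nearly level across cell types at pH 5.7, with means from 151 to 198 and no difference past the threshold (F test adjusted p = 0.359), and its mean response was -0.51 ± 0.09 (adjusted p = 3.25e-05), lower in all 5. TBL25 was highest in cortex, at 409.6 ± 34.4 at pH 4.6 and 645 ± 144 at pH 5.7, and lowest in columella, at 37.1 ± 17.4 at pH 4.6 and 25.5 ± 5.16 at pH 5.7. Its mean response of -0.30 ± 0.10 had an adjusted p of 0.0297. It was lost with a pseudocount of 1 (0.0709) and without columella pH 4.6 replicate 2 (0.0586), columella pH 5.7 replicate 3 (0.0535), epidermis pH 4.6 replicate 3 (0.0541), epidermis pH 5.7 replicate 3 (0.0587), cortex pH 5.7 replicate 1 (0.0599) or stele pH 4.6 replicate 2 (0.0609). TBL26 lay between 25.1 and 55.4 in all groups.

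TBL37 was one of the brightest members, and the only one of the 37 genes with a call in each direction. In columella, where it was faintest, it had 106, 166 and 175 at pH 4.6, against 39.9, 64.8 and 78.1 at pH 5.7, a rise of 2.22-fold (log2 change 1.15 ± 0.21, adjusted p = 0.000242). In epidermis it had 728, 819 and 906 at pH 4.6, against 1050.0, 1753 and 1758 at pH 5.7, a fall of 1.80-fold (adjusted p = 0.0119). In endodermis it had 1838, 1974 and 2839 at pH 4.6, against 3124, 3431 and 3669 at pH 5.7, a fall of 1.56-fold (adjusted p = 0.0464). The columella rise kept its call under all 40 alternatives. In the columella arrays, 11 of 200 probe sets placed in endodermis by the other arrays were higher and 7 lower. Their summed signals were 36404 to 39839 at pH 4.6 and 29580 to 32949 at pH 5.7. Of 200 placed in cortex, where TBL37 was brightest, 27 were higher and 27 lower. Their sums were 36468 to 38091 at pH 4.6 and 38695 to 41439 at pH 5.7. The part of these markers in the TBL37 rise was not tested.

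In cortex and stele TBL37 was lower as well, with 3942 ± 206 and 1966 ± 275 at pH 4.6, against 5962 ± 629 and 2899.6 ± 375 at pH 5.7, with no overlap between groups but no call (adjusted p = 0.0632 and 0.137). The cortex fall passed under 11 alternatives, with a pseudocount of 55.3 (0.0365), equal array medians (0.0396), the filters at percentiles 40 and 60 (0.0483 and 0.0401), array weights (0.00966), the replicate number as a block (0.0328), the cortex arrays alone (0.0295), and without columella pH 4.6 replicate 1 (0.0488), columella pH 5.7 replicate 1 (0.0446), epidermis pH 5.7 replicate 2 (0.0356) or endodermis pH 4.6 replicate 1 (0.0445). The differences between cell types passed (interaction adjusted p = 0.000144). The order cortex, endodermis, stele, epidermis, columella was the same at both pH values. At pH 5.7 each step in it passed (0.00411, 0.000843 and 9.43e-16) except endodermis against stele (0.533). The endodermis call was lost under 21 of 40 alternatives, with adjusted p up to 0.164. Among them were a pseudocount of 1 (0.0664), quantile normalization (0.0572), equal array medians (0.0629), the endodermis arrays alone (0.137), and the fits without endodermis pH 4.6 replicates 2 (0.128) and 3 (0.164) or pH 5.7 replicates 1 (0.135), 2 (0.071) and 3 (0.103). The epidermis call was lost without pH 4.6 replicate 3 (0.0572), pH 5.7 replicate 1 (0.0844), pH 5.7 replicate 3 (0.0948) and in the epidermis arrays alone (0.131).

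**Figure D4:**
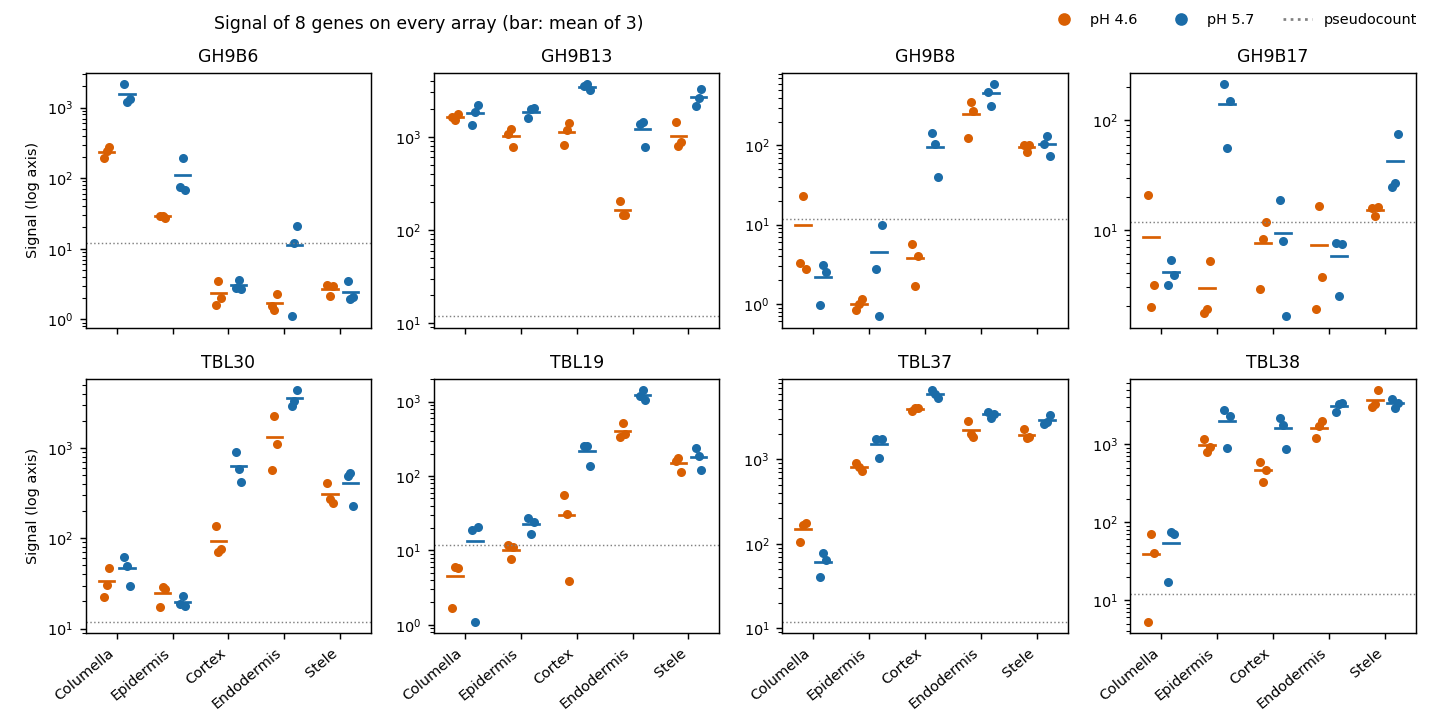
Signal on every array (vertical log axis) of 4 GH9 and 4 TBL genes in the 5 cell types, pH 4.6 left of pH 5.7, with a bar at the mean of 3 and a dotted line at 11.9. GH9B6 is lower in columella, GH9B13 in endodermis, cortex and stele, GH9B17 in epidermis, and TBL37 is higher in columella and lower elsewhere.

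TBL19 and TBL21 are neighbours on chromosome 5 (AT5G15900 and AT5G15890) and were highest in different layers. TBL19 was an endodermis gene, with 329.7, 372 and 523 there at pH 4.6, against 1062, 1192 and 1426 at pH 5.7, a fall of 2.98-fold (adjusted p = 0.00643) that was lost with a pseudocount of 1 (0.149). In cortex it had 3.84, 30.8 and 56.1 at pH 4.6, against 138, 252 and 257 at pH 5.7 (log2 change -2.62 ± 0.38, adjusted p = 1.49e-05). The lowest cortex array decided part of that size, which was -2.03 without pH 4.6 replicate 3, -3.34 with a pseudocount of 1 and -1.68 with one of 55.3. In stele it had 149 ± 30.6 at pH 4.6 and 182 ± 60.2 at pH 5.7, with overlapping values, and in epidermis and columella it had 10.2 ± 2.31 and 4.53 ± 2.47 at pH 4.6, against 22.8 ± 5.79 and 13.5 ± 10.8 at pH 5.7. At pH 5.7 endodermis was above cortex (8.66e-06) and stele above epidermis (1.09e-05). Its interaction had an adjusted p of 0.0151, lost with a pseudocount of 1 (0.217) and without cortex pH 5.7 replicate 2 (0.0514).

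TBL21 was brightest in epidermis, at 1605 ± 141 at pH 4.6 and 1937 ± 526 at pH 5.7, and next in stele, at 819 ± 179 at pH 4.6 and 1312 ± 196 at pH 5.7. Its other means were 89.9 or less, at either pH. Stele did not differ from epidermis at pH 5.7 (0.229) and was above endodermis (3.55e-10). It passed in no cell type, and its mean response of -0.36 ± 0.14 (adjusted p = 0.0477) was lost under 22 of 39 alternatives, with adjusted p up to 0.0984. TBL41 was highest in cortex at both pH values, and at pH 5.7 cortex, epidermis and stele did not differ from their neighbours in the order (0.889 and 0.162) while stele was above endodermis (3.41e-07). In epidermis it had 423, 546 and 607 at pH 4.6, against 693, 1847 and 2150.1 at pH 5.7, a fall of 2.66-fold (adjusted p = 0.0327). In cortex it had 385, 659 and 802 at pH 4.6, against 897, 1933 and 2013 at pH 5.7, a fall of 2.55-fold (adjusted p = 0.0254). One control array of each cell type lay near the low pH arrays, and the groups did not overlap.

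Both TBL41 calls were lost with a pseudocount of 1 (0.164 in epidermis and 0.14 in cortex). The epidermis call was also lost in the epidermis arrays alone (0.142) and without pH 4.6 replicates 2 (0.153) and 3 (0.0687) or pH 5.7 replicates 1 (0.155) and 3 (0.215). The cortex call was also lost without pH 4.6 replicate 2 (0.148) and pH 5.7 replicates 1 (0.129) and 2 (0.124). Of 3 cortex markers, 2 were lower in epidermis, NPF6.4 (12.3 ± 6.61 at pH 4.6 and 38.2 ± 14.3 at pH 5.7, adjusted p = 0.0177) and AT1G62510 (66.7 ± 13.3 at pH 4.6 and 165 ± 74.2 at pH 5.7, 0.0294), and AT1G09750 did not pass (0.763). In cortex AT1G09750 (1435 ± 337 at pH 4.6 and 4102 ± 782 at pH 5.7, 0.00589) and AT1G62510 (1422 ± 449 at pH 4.6 and 2763 ± 813 at pH 5.7, 0.0401) were lower, and NPF6.4 did not pass (0.864). Of the 200 cortex markers from the other arrays, 10 were lower and 10 higher in epidermis. Their part in the TBL41 values was not tested. In stele TBL41 had 325 ± 86.4 at pH 4.6 and 847 ± 339.7 at pH 5.7 (adjusted p = 0.0605). The stele fall passed under 9 alternatives, with a pseudocount of 55.3 (0.0275), quantile normalization (0.0460), equal array medians (0.0491), the filters at percentiles 40 and 60 (0.0450 and 0.0387), the replicate number as a block (0.0202), and without columella pH 4.6 replicate 1 (0.0406), epidermis pH 5.7 replicate 2 (0.0310) or cortex pH 5.7 replicate 3 (0.0460). Its mean response was -1.11 ± 0.18 (adjusted p = 2.08e-05), lower in all 5 cell types, and the test of a difference between them did not pass (interaction adjusted p = 0.786).

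TBL38, which codes for a protein described as a pectin acetylesterase, fell in cortex. In cortex it had 327, 465 and 595 at pH 4.6, against 877, 1759.7 and 2143 at pH 5.7, a fall of 3.26-fold (log2 change -1.70 ± 0.45, adjusted p = 0.00927). The groups were apart, and the call was lost without pH 4.6 replicate 2 (0.0564) and pH 5.7 replicate 1 (0.0682). In stele, its brightest cell type at both pH values, it averaged 3715 ± 1042 at pH 4.6 and 3353 ± 413 at pH 5.7. In endodermis and epidermis it had 1626 ± 391 and 959 ± 188 at pH 4.6, against 3041 ± 434 and 1971 ± 958 at pH 5.7, and in columella 38.8 ± 33.1 against 53.8 ± 31.8, and none of these passed. At pH 5.7 the first 4 cell types did not differ from their neighbours in the order (0.896, 0.190 and 0.751), and cortex was above columella (6.52e-10).

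TBL45 was a columella gene that fell in cortex and endodermis. In columella it had 629 ± 182 at pH 4.6 and 520.3 ± 108 at pH 5.7, with overlapping values. In endodermis it had 60.9, 74.8 and 76.1 at pH 4.6, against 124, 191 and 226 at pH 5.7, a fall of 2.28-fold (adjusted p = 0.011) that was lost on dropping pH 5.7 replicate 3 (0.0654) or setting the pseudocount to 1 (0.0961). In cortex it had 1.02, 1.12 and 5.91 at pH 4.6, all under the pseudocount, against 17.6, 24.4 and 61.3 at pH 5.7 (adjusted p = 0.00062). The log2 change there was -1.57 ± 0.31, or -3.32 with a pseudocount of 1 and -0.60 with one of 55.3, where the call was lost (0.0528). In stele it had 153 ± 51.4 at pH 4.6 and 162 ± 32.8 at pH 5.7, and in epidermis 4.67 ± 3.91 at pH 4.6 and 9.37 ± 5.80 at pH 5.7. The interaction adjusted p of 0.0218 was lost without columella pH 4.6 replicate 3 (0.0519) and pH 5.7 replicate 1 (0.0507). At pH 5.7 columella was above endodermis (0.000200) and stele above cortex (8.11e-06).

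Among the remaining TBL members only TBL18 and TBL42 passed within a cell type, in 1 each. TBL39, with TBL37 the brightest, had 4730.2 ± 131 at pH 4.6 and 6064 ± 625 at pH 5.7 in cortex. In stele, epidermis, columella and endodermis it had 2268 ± 240.2, 2807 ± 523, 1503 ± 122 and 964 ± 53.4 at pH 4.6, against 2727 ± 579, 2633 ± 347, 1547 ± 143 and 1341 ± 185 at pH 5.7. Cortex was above stele at pH 5.7 (1.60e-06), and no pH change of TBL39 passed within a cell type. Its values did not overlap in cortex (adjusted p = 0.171) and endodermis (0.0617), and the mean response of -0.20 ± 0.07 (adjusted p = 0.0316) was lost under 11 of 39 alternatives, with quantile normalization (0.156) and on leaving out any of 10 single arrays (up to 0.0613). TBL18 had 285, 299 and 357 at pH 4.6 in columella, against 448, 455 and 472 at pH 5.7 (1.45-fold lower, adjusted p = 0.0382). That call was lost with the replicate number as a block (0.0564) and without pH 4.6 replicates 1 (0.113) and 2 (0.138) or pH 5.7 replicates 1 (0.103), 2 (0.077) and 3 (0.0861). TBL42 had 3.39, 4.13 and 4.59 at pH 4.6 in endodermis, against 18.7, 18.7 and 27.9 at pH 5.7 (adjusted p = 0.0245). These signals lie around the pseudocount, the log2 change of -1.07 ± 0.31 was -2.16 with a pseudocount of 1 and -0.38 with one of 55.3, and the call was lost without any of the pH 4.6 replicates (0.0644, 0.0506 and 0.0591) and without pH 5.7 replicate 2 (0.102).

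TBL36 moved in opposite directions without passing. It had 201 ± 79.0 at pH 4.6 and 337 ± 32.5 at pH 5.7 in columella, and 317 ± 29.4 at pH 4.6 and 156 ± 81.0 at pH 5.7 in stele. The values did not overlap in either cell type (adjusted p = 0.165 and 0.0860), and the test of a difference between cell types did not pass (interaction adjusted p = 0.0575). At pH 5.7 columella was above stele (0.00881), and at pH 4.6 stele had the higher mean without a difference past the threshold (0.129). TBL16 had means from 126 to 263 and no pH call. The faint TBL15, TBL20 and TBL43 had group means from 2.03 to 20.6 and no pH call.

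Genes that work beside these families were read from lists chosen by function. Of 3 measured genes of the cellulose synthase complex (of 13 listed), CC2, a companion of the complex, was lower in 4 cell types. It had 165 ± 35.6 at pH 4.6 and 335 ± 45.8 at pH 5.7 in endodermis (adjusted p = 0.00367), and 309.7 ± 86.4 at pH 4.6 and 627 ± 111 at pH 5.7 in stele (0.00702). The other CC2 calls were in columella (0.00527) and epidermis (0.0390). COB, needed for oriented cellulose deposition, was lower in columella alone of the 5 cell types (205 ± 9.02 at pH 4.6 and 315 ± 41.9 at pH 5.7, adjusted p = 0.0256). AXY9, which acts with the TBL proteins in wall acetylation and was the 1 measured of 5 partners, was lower in cortex (125 ± 6.25 at pH 4.6 and 197 ± 7.81 at pH 5.7, adjusted p = 0.0211). Of 4 measured xylan genes (of 15), IRX15L was lower in cortex (168.0 ± 24.8 at pH 4.6 and 732 ± 374 at pH 5.7, adjusted p = 0.000315) and in endodermis (0.0443). IRX15 was lower in endodermis (7.52 ± 8.96 at pH 4.6 and 45.4 ± 12.7 at pH 5.7, adjusted p = 9.03e-05) and IRX10 in columella (123 ± 28.8 at pH 4.6 and 223 ± 18.3 at pH 5.7, adjusted p = 0.0210). CSLC4, the xyloglucan backbone synthase and 1 measured of 8 xyloglucan and mannan genes, was higher in columella (289 ± 25.5 at pH 4.6 and 150.1 ± 12.04 at pH 5.7, adjusted p = 0.000723).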

How the data were processed

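Sorted root cells were hybridised, as amplified RNA, to ATH1 arrays, 3 for each of 5 cell types at pH 4.6 and at pH 5.7. The deposited values are intensities on a linear scale, from MAS5 per the submitters' processing notes, whose version is not given in the sources used here. The trimmed means of the deposited arrays lay between 250.02 and 250.03, so each array had been scaled to a common level. No detection calls or scanner files were used, and probe sets that match similar transcripts cannot be separated here.

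All 22746 probe sets other than 64 controls were fitted, with no filter, as log2(signal + 11.9), where 11.9 is percentile 25 of all signals. A model of 10 group means (limma 3.58.1 in R 4.3.3, moderated with a mean-variance trend, 20 residual degrees of freedom) gave the pH change in each cell type, its mean over cell types, the interaction F test, the F test between cell types at pH 5.7 and all pairs of cell types. P-values were adjusted by Benjamini-Hochberg over all probe sets and called at 0.05. Errors of group means are SDs of 3 arrays and errors of log2 changes are standard errors of the fit. A self-test on simulated data for the columella comparison, over 22746 probe sets, recovered 44 of 100 changes of 1 and 95 of 100 changes of 2 on the log2 scale, with 11 false calls.

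Genes were named from the platform's annotation, in which 13513 probe sets have 1 gene, 503 several and 8730 none. Of the first, 13436 matched RefSeq (TAIR10.1), which was used only for symbols and for which genes lie side by side. Members and gene lists were chosen with earlier results of these data known. Arrays of one group correlated at 0.957 to 0.981, and no pair of arrays shared its values. Taken over all cell types, same-numbered replicates did not deviate together (r from -0.106 to 0.146, with 5 of 15 pairs over 0.1). In epidermis, however, every same-numbered pair had a positive r (0.131, 0.140 and 0.0905), and the other pairs ran from -0.185 to 0.0927. In cortex an unlike-numbered pair reached 0.253. Marker sets of 200 probe sets were taken, for each cell type, from the arrays of the others. The level in the cell type where a set is read was not used. A set can therefore hold genes that this cell type itself expresses, and its fall need not come from other cells.

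Values on each array were given for up to 12 called gene and cell type combinations per family by smallest adjusted p, and the 4 further TBL calls were added after their values were seen. Levels in every cell type were given for the 4 brightest genes of each family, genes of established role and genes with an interaction call. TBL16, TBL18, TBL21, TBL23, TBL25, TBL28, TBL36 and TBL41 were described further after their values were seen. The alternatives were a pseudocount of 1 or of 55.3, quantile normalization, equal array medians, filters at percentiles 40 and 60, robust moderation, array weights, the replicate number as a block, the 6 arrays of a cell type alone, and leaving out each array.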

Additional observations from a re-analysis of the deposited data

Results flagged for a closer look

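The pH change of 9 genes differed between cell types in the interaction test of limma. For GH9B13 (adjusted p = 0.000116) the log2 change ran from -2.75 in endodermis to -0.11 in columella. TBL37 (0.000144) ran from -0.85 in epidermis to 1.15 in columella, the one gene with calls in both directions. GH9B17 (0.000372) ran from -3.20 in epidermis to 0.25 in columella, and GH9B6 (0.000383) from -2.62 in columella to 0.02 in stele. GH9B8 (0.00172) ran from -2.64 in cortex to 0.50 in columella, and TBL30 (0.00273) from -2.60 in cortex to 0.19 in epidermis. TBL19 (0.0151) ran from -2.62 in cortex to -0.24 in stele, TBL45 (0.0218) from -1.57 in cortex to 0.25 in columella, and GH9B7 (0.0360) from -1.21 in columella to -0.20 in stele.

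The interaction of GH9B13, GH9B17, GH9B8, TBL30 and TBL37 kept its call under each alternative that was run for it. That of GH9B6 was lost with a pseudocount of 1 (0.106), and that of TBL19 with a pseudocount of 1 (0.217) and without cortex pH 5.7 replicate 2 (0.0514). That of TBL45 was lost without columella pH 4.6 replicate 3 (0.0519) and without columella pH 5.7 replicate 1 (0.0507). That of GH9B7 was lost with equal array medians (0.0932) and on leaving out any of 9 single arrays, with adjusted p up to 0.107 (columella pH 5.7 replicate 2). The low values of GH9B8, GH9B17 and TBL45 lie under the pseudocount, where size has little meaning. At the other end of the range, some means lay under the pseudocount at both pH values. These were GH9B6 in stele (2.71 at pH 4.6 and 2.48 at pH 5.7), GH9B17 in columella (8.66 and 4.09) and GH9B8 in columella (9.77 and 2.19). A fall could not be seen there, so these ends do not show a cell type without a response. No cause was tested.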

How the results depend on the processing

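The pH calls summed over cell types were 12 for GH9 and 16 for TBL, and lay between 9 and 14 and between 12 and 24 over the alternatives other than leaving out an array, and between 10 and 15 and between 13 and 21 on leaving out each array. All GH9 calls were lower under each of these alternatives, and the TBL calls held 1 or 2 that were higher. The interaction calls were 5 for GH9 and 4 for TBL, with 4 to 5 and 3 to 5 on leaving out each array, and the TBL count reached 7 with array weights. The cell type calls were 11 for GH9 and 17 for TBL, with 10 to 12 and 16 to 18 on leaving out each array, and the GH9 count was 7 with the filter at percentile 60, under which fewer members were fitted. No change reversed its direction. Equal array medians moved the median of all probe sets from 0.02 to -0.09 in epidermis, from 0.01 to -0.09 in cortex and from 0.06 to -0.05 in stele on the log2 scale. With the replicate number as a block, which the arrays did not bear out as a pairing over all cell types, the pH calls were 14 for GH9 and 21 for TBL. Beside the 28 calls, 20 further gene and cell type combinations passed under at least 1 of 40 alternatives, 15 of them under 3 or fewer. The others were TBL37 in cortex (11), TBL41 in stele (9), TBL18 in cortex (8), TBL28 in columella (6) and TBL39 in endodermis (4). The mean response of TBL18 was lost under 24 of 39 alternatives and that of TBL21 under 22. Signals near the pseudocount and 3 arrays a group limit the precision of faint genes. The cause of these shifts was not tested.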
